A study of Mus musculus with 2 samples.

Results

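Altogether 10 genes of the integrin family were followed in mouse fibroblasts sorted by the brightness of a circadian reporter: the alpha subunit genes Itga1, Itga3, Itga5, Itga6, Itga11 and Itgav and the beta subunit genes Itgb1, Itgb3, Itgb5 and Itgb7. They were chosen by symbol, as 10 of the 33757 genes in the count table and 10 of the 23 integrin subunit genes in it, and because Itga11 was already known to be among the genes that were lowest in bright cells. The level of Itga11 across the sorted bins is therefore given as a description with no test. The cells were NIH3T3-Rev-VNP1-H2B-iRFP, a reporter derivative of the NIH3T3 mouse fibroblast line in which Nr1d1-Venus, a fluorescent reporter of the clock gene Nr1d1 (Rev-erb alpha), and H2B-iRFP, an infrared fluorescent histone, can be sorted together. They were not synchronized and had grown close to confluence, no drug or genotype was compared, and all cells carry both reporters. Single cells were sorted into 4 Venus bins on each of 2 plates of 384 wells, and full-length cDNA of each cell was sequenced by FLASH-seq. Bin 1 is the dimmest and bin 4 the brightest, with median Venus intensities of 944265 and 33090943 arbitrary units on plate 1 and 943736 and 31510090 on plate 2. The plates also differ in the H2B-iRFP sort: the median iRFP intensity of a bin was 329808 to 369572 on plate 1 and 140003.5 to 161602 on plate 2, so plate and iRFP sort cannot be told apart. A bin also occupied 6 adjacent well columns, identical for the plates, and its effect cannot be told apart from that of position.

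Of 768 wells, 762 cells passed the filter (383 and 379), with 151173 to 1618022 counts and a median of 843223.5. Counts were summed over the cells of each plate and bin, which gave 8 sums of 76042157 to 86612194 counts. The labels do not say whether the plates came from separate cultures. With 2 plates and a plate term, the p-values rest only on how the course over bins differs between these plates, moderated across genes. That difference may be technical. Levels are CPM, counts relative to the library's total after TMM scaling, given from bin 1 to bin 4, and the Venus trend is the log2 change in level per step to the next brighter bin. In a sum, fewer cells with a transcript and less transcript per cell cannot be told apart. Of the 7 fibroblast markers Col1a1, Col1a2, Vim and S100a4 had a count in all 762 cells, Pdgfra in 99.3%, Pdgfrb in 99.1% and Thy1 in 51.8%. Of the leukocyte markers Ptprc had 1 count in all, but Lyz2 had a count in 53.0% of cells and Itgb2 in 27.8%. Of the epithelial markers Epcam and Krt18 had 2 counts each, Krt8 had 128, and Cdh1 had a count in 43.4% of cells.

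Integrins are cell-surface receptors made of 1 alpha and 1 beta chain. The alpha chain largely sets which matrix protein is bound: α1 and α11, each paired with β1, bind collagens, α3 and α6 bind laminins, and α5 and αv bind ligands with an RGD peptide such as fibronectin and vitronectin. The β1 chain pairs with most alpha chains, β3 and β5 pair with αv, and β7 is best known from lymphocytes, where it pairs with α4 or αE. In fibroblasts α11β1 is known as a major receptor for fibrillar collagen.

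The upstream sequences of Itga11 and of the 2 beta subunits with a called trend and an entry are shown because Itga11 and Itgb5 were lower and Itgb7 was higher toward bright Venus. RefSeq promoter entries (build GRCm38.p6) were found for 8 of the 10 members, not for Itga6 and Itgb3. The lines run 5′ to 3′ from 250 bases before the RefSeq start up to the first base before any GENCODE M21 transcript of the gene, and capitals mark GC boxes (GGGCGG on either strand). They are chr9:62677605-62677825 on the plus strand for Itga11, chr16:33829415-33829664 on the plus strand for Itgb5 and chr15:102231945-102232185 on the minus strand for Itgb7.
Itga11: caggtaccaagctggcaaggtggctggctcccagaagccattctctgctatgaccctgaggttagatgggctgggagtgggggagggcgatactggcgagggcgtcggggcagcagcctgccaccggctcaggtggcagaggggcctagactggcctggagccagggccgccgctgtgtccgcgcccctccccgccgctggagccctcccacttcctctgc
Itgb5: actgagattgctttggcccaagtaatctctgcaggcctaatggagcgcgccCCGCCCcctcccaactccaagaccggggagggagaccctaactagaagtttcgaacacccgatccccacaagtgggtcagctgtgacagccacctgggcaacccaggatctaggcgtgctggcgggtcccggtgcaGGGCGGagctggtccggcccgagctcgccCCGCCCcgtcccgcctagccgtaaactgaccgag
Itgb7: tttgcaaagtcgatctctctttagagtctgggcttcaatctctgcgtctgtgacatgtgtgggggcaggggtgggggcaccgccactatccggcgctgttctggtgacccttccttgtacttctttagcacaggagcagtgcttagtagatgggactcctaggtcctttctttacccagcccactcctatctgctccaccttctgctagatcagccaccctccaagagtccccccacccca

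The clock motifs searched on both strands were the E-box CACGTG, the core AGGTCA of ROR and REV-ERB elements and the D-box TTANGTAA, in the full 250 bases before each RefSeq start. None of these letters was found in any of the 8 members' windows, and 6.02%, 14.0% and 2.06% of all 32851 promoter windows held them. The GC box, found in 32.7% of all windows, occurred 3 times in the Itgb5 window, 2 times in that of Itga5 and 1 time in that of Itgb1. It also occurred 3 times and 1 time in the 2 windows of Itga3, and not in those of Itga11, Itga1, Itgav and Itgb7. The TATA box TATAAA, in 12.4% of all windows, was in none of them. The Itga11 window was 68.4% G or C with 12 CpG, against medians of 52.4% and 6 over all windows. A match or its absence in such a window describes the letters only.

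Of the alpha chains that bind collagen, Itga11 was the one with the steep gradient. On plate 1 its level was 37.8, 18.8, 9.94 and 9.61 CPM from bin 1 to bin 4, and on plate 2 it was 24.1, 16.9, 9.17 and 5.91 CPM. Levels were highest in the dimmest bin and lowest in the brightest on both plates, and both bin 1 values lay above all 6 others. The share of all genes with that form was not counted, and 27.8% had both bin 4 values below both bin 1 values. Bin 1 was 3.93-fold above bin 4 on plate 1 and 4.08-fold on plate 2. The fitted trend was -0.69 ± 0.05 (SE) log2 per bin, with -0.68 and -0.69 on the plates taken alone. Itga11 was ranked beside genes with a fall on each plate, an edgeR adjusted p under 0.05 and mean log2 CPM above 3. It was number 3, between Arntl (Bmal1, the clock activator that the Nr1d1 product represses) at -0.72 and Ncam1 (a neural adhesion molecule) at -0.58. In that ranking Rnase4, a secreted ribonuclease, had the most negative trend at -0.83. Genes outside these limits were not ranked. Leaving out bin 4 gave -0.83 for Itga11 and leaving out bin 1 gave -0.61.

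The steps of Itga11 from bin 1 to 2, 2 to 3 and 3 to 4 were -1.0, -0.92 and -0.05 on the log2 scale on plate 1 and -0.51, -0.88 and -0.63 on plate 2. The plates thus differed in the last step, where the level was nearly flat on plate 1 and went on down on plate 2. Curvature, the mean of bins 1 and 4 minus that of bins 2 and 3, divided by 2, on the log2 scale, was 0.11 ± 0.06 (SE, adjusted p = 0.409 by edgeR). It was 0.24 on plate 1 and -0.03 on plate 2. Itga1, the other collagen-binding chain, was present at 1.33, 0.979, 1.72 and 2.49 CPM on plate 1 and 1.73, 1.27, 2.12 and 1.66 CPM on plate 2. The Itga1 trend of 0.21 ± 0.09 per bin did not pass the test (edgeR adjusted p = 0.163). Its exons overlap those of the annotated gene Gm49395 on the same strand, so reads of the overlap cannot be assigned with certainty.

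**Figure D1:**
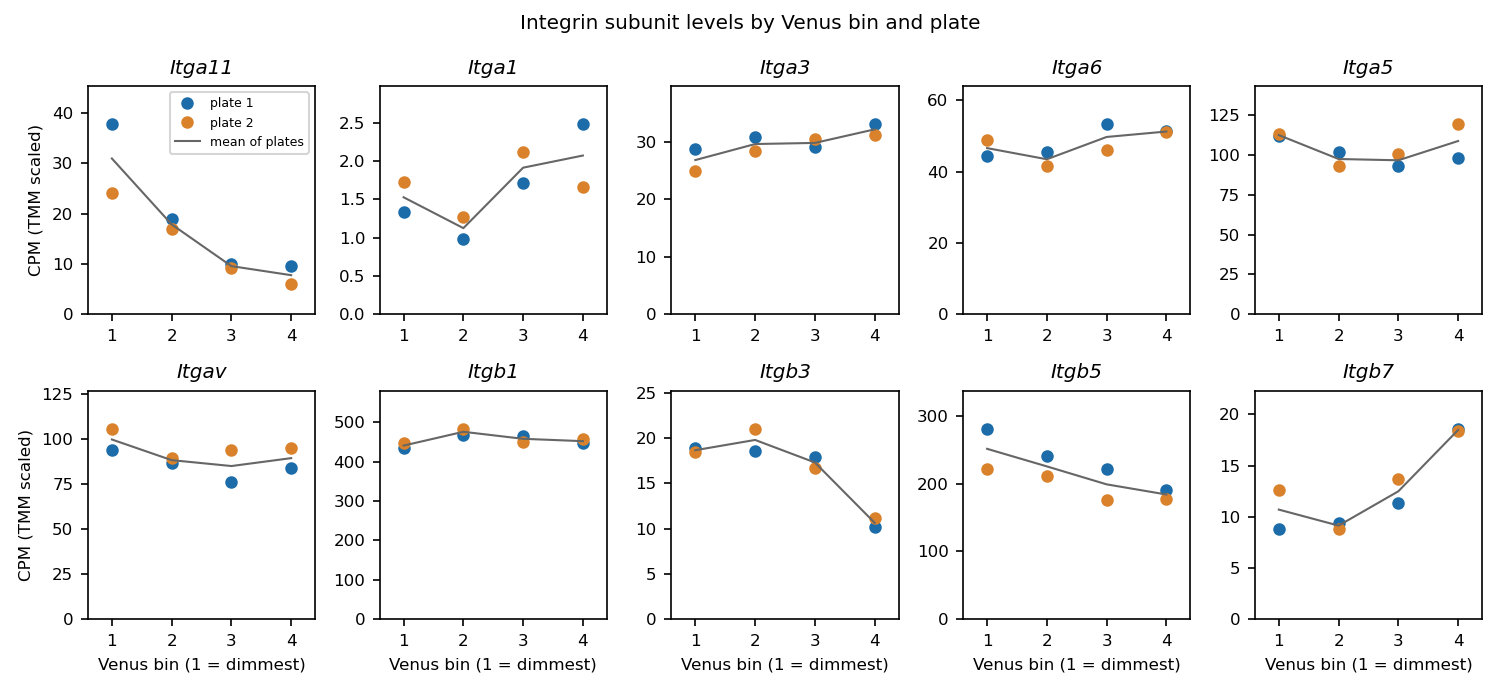
Level of each integrin subunit gene (CPM after TMM scaling, each panel from 0) against Venus bin, with 1 point per plate and a line through the mean of the 2 plates. Itga11 is at 37.8 and 24.1 CPM in bin 1 and at 9.61 and 5.91 CPM in bin 4. Itgb3 is lower mainly in bin 4, the plate mean of Itgb5 declines over all bins, and Itgb7 is highest in bin 4.

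The other 9 members were tested across bins with all genes. Of them 3 passed an adjusted p of 0.05 in edgeR's quasi-likelihood test: Itgb3 and Itgb5 fell and Itgb7 rose with Venus. Over all 18430 genes tested, 15.4% passed, 8.64% lower and 6.78% higher, so 3 of 9 is read beside that background. Of all called genes 44.0% were higher, against 57.7% with library totals in place of TMM. At an unadjusted p under 0.05, 6 of the 9 passed (Itga1, Itga3, Itgav and these 3), against 29.8% of all genes. All 10 members passed the filter on low counts.

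The laminin-binding chains Itga3 and Itga6 did not pass the test. Itga3 was at 28.8, 30.8, 29.1 and 33.0 CPM on plate 1 and 24.8, 28.3, 30.4 and 31.2 CPM on plate 2, a trend of 0.08 ± 0.03 per bin (edgeR adjusted p = 0.0885). It passed with DESeq2 (adjusted p = 0.0464), with library totals in place of TMM (0.0439) and with limma on mean CPM (0.0443). Itga6 was at 44.4, 45.4, 53.4 and 51.5 CPM on plate 1 and 48.8, 41.6, 46.1 and 51.1 CPM on plate 2, a trend of 0.06 ± 0.03 (edgeR adjusted p = 0.203). For both genes the 2 bin 4 values lay above the 2 bin 1 values, as they did for 26.6% of all genes.

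The RGD-binding chains Itga5 and Itgav also showed no trend that passed. Itga5, the alpha chain of the classical fibronectin receptor, was at 112, 102, 92.9 and 98.2 CPM on plate 1 and at 113, 93.2, 101 and 119 CPM on plate 2. Its trend was -0.02 ± 0.03 per bin (edgeR adjusted p = 0.757), with -0.07 on plate 1 and 0.03 on plate 2. Itgav was at 93.9, 86.9, 75.9 and 83.8 CPM on plate 1 and at 106, 89.7, 94.1 and 95.1 CPM on plate 2, a trend of -0.05 ± 0.02 (edgeR adjusted p = 0.152). Itgav was highest in bin 1 on each plate. Its exons overlap those of the annotated gene Gm13684 on the opposite strand, and strand use in the counting is not given in the sources used here.

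Among the beta chains Itgb1, the partner of α11, stayed within a narrow range. It was at 435, 468, 466 and 446 CPM on plate 1 and 446, 483, 450 and 458 CPM on plate 2, a trend of 0.01 ± 0.01 per bin (edgeR adjusted p = 0.853). The ratio of Itga11 to Itgb1 CPM thus went from 8.68% in bin 1 to 2.15% in bin 4 on plate 1 and from 5.40% to 1.29% on plate 2. Itgb5, a vitronectin receptor chain, was at 281, 240, 222 and 191 CPM on plate 1 and 222, 211, 176 and 177 CPM on plate 2. It fell by 0.15 ± 0.02 per bin (edgeR adjusted p = 0.00523), and both bin 1 values lay above both bin 4 values, as they did for 27.8% of all genes. This call was lost in cells low in G2/M counts (trend -0.11, edgeR adjusted p = 0.0713), without the plate term (-0.15, 0.0693), without bin 1 (-0.15, 0.0510) and without bin 4 (-0.17, 0.0508).

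Itgb3, the other beta chain that pairs with αv, changed mainly in the brightest bin. It was at 18.9, 18.6, 17.9 and 10.2 CPM on plate 1 and 18.5, 21.0, 16.7 and 11.1 CPM on plate 2. Both bin 4 values lay below all 6 others, a form whose share over all genes was not counted. For 27.8% of all genes both bin 4 values lay below both bin 1 values. The steps from bin to bin on the log2 scale were -0.02, -0.05 and -0.82 on plate 1 and 0.19, -0.33 and -0.58 on plate 2. Itgb3 fell by 0.26 ± 0.03 per bin (edgeR adjusted p = 0.00367). Without bin 4 the trend was -0.05 (edgeR adjusted p = 0.664) and without bin 1 it was -0.45. Its curvature was -0.20 on the pair of plates (edgeR adjusted p = 0.0659), with -0.20 on plate 1 and -0.19 on plate 2.

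Itgb7 moved in the opposite direction. It was at 8.82, 9.42, 11.3 and 18.6 CPM on plate 1 and 12.6, 8.85, 13.7 and 18.4 CPM on plate 2, highest in bin 4 on both plates. It rose by 0.28 ± 0.05 per bin (edgeR adjusted p = 0.0101), and bin 4 was 1.73 times bin 1. Both bin 4 values lay above both bin 1 values, as they did for 26.6% of all genes. Without bin 4 the trend was 0.12 (edgeR adjusted p = 0.496) and without bin 1 it was 0.51, so this call, too, was lost without the brightest bin. The usual alpha partners of β7 were low: Itga4 had 27 counts in 11 of 762 cells and Itgae was at 2.52 CPM. The summed level of the 6 leukocyte markers was 8.35, 8.78, 10.2 and 12.8 CPM from bin 1 to bin 4 on plate 1. On plate 2 it was 10.8, 8.75, 10.3 and 15.1 CPM. Of these markers Lyz2, a lysozyme gene, rose by 0.22 per bin (edgeR adjusted p = 0.0276) and gave 8.14 CPM of that sum, Itgb2 was at 2.39 CPM, and Ptprc, Cd3e, Cd79a and Cd52 had 1, 4, 9 and 31 counts. Their part in the Itgb7 result was not tested.

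For the curvature contrast none of the 10 members passed in edgeR, where 0.657% of all genes did. By unadjusted p 4 members were under 0.05 (Itga5, Itgav, Itgb3 and Itgb7), against 16.7% of all genes. DESeq2 called 2 members, Itgb3 (adjusted p = 9.74e-04) and Itgb7 (adjusted p = 0.0231), and limma on mean CPM called 1, Itgb3 (adjusted p = 0.0491).

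**Figure D2:**
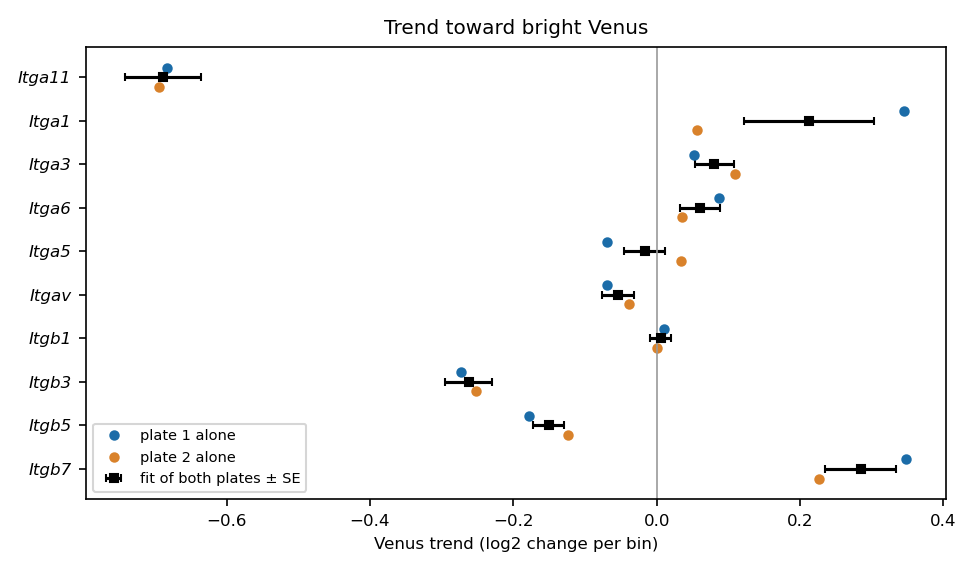
Venus trend of each integrin subunit gene in log2 change per bin: squares with bars are the edgeR fit of both plates ± SE, and circles are each plate alone. Itga11 stands at -0.69, Itgb3 at -0.26, Itgb5 at -0.15 and Itgb7 at 0.28, and the plates fall on opposite sides of 0 for Itga5 only.

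Levels can be ordered between genes only per length of transcript. As mean CPM per kilobase of exon over the 8 sums, the order was Itgb1 at 112, Itgb5 at 60.5, Itga5 at 21.1, Itgav at 8.43, Itga6 at 5.30, Itga3 at 5.18, Itgb7 at 4.59, Itga11 at 3.22, Itgb3 at 2.81 and Itga1 at 0.0893. The ranges over the 8 sums of the first 4 genes did not overlap. Those of Itga6 (4.61 to 5.91), Itga3 (4.34 to 5.79) and Itgb7 (3.18 to 6.71) overlapped one another, and that of Itga11 (1.15 to 7.36) spanned them and Itgb3 (1.72 to 3.56). Itga11 supplied 15.1%, 8.56%, 4.97% and 4.55% of the summed per-kilobase level of the 6 alpha chains over the bins of plate 1. On plate 2 its share was 9.92%, 8.18%, 4.31% and 2.54%. Itga5 supplied 46.5% to 53.3% of it in every bin of either plate.

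Between plates Itga11 and Itgb5 were higher on plate 1, with plate 1 to plate 2 ratios of 1.29 (95% interval 1.24 to 1.34) and 1.14 (1.13 to 1.15). Itgav, Itgb7 and Itga5 were lower, with ratios of 0.846, 0.858 and 0.907, and Itga3 and Itga6 were at 1.02 and 0.996. These intervals cover counting error only, reads amplified by PCR are not independent molecules, and with 1 plate of each kind there was no test. Inside the gates, cells above the gate median of iRFP intensity had more Itga11 than those below it in 7 of 8 plate and bin blocks, as did 3.2% of all genes in at least 7. Itgb5 was higher in the brighter iRFP cells in 8 of 8 blocks, as were 0.391% of genes, with a median log2 ratio of 0.14.

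In single cells the share of cells with Itga11 was lower in each brighter bin on both plates, as a description of the gene's chosen pattern. A count was found in 74.7%, 55.2%, 50.0% and 34.4% of the 95 or 96 cells per bin of plate 1. On plate 2 the shares were 60.0%, 43.6%, 35.4% and 30.9%. After each cell was thinned to 500000 counts, which left out 12 cells, 8 of them in bin 2 of plate 2, the ends were 72.6% and 34.0% on plate 1 and 57.9% and 28.0% on plate 2. Among cells with a count, the mean level was 48.5, 33.6, 19.2 and 28.5 CPM on plate 1 and 40.5, 37.9, 25.5 and 21.3 CPM on plate 2. It was higher in bin 1 than in bin 4 on both plates, but on plate 1 bin 3 was the lowest, and the median of these cells was higher in bin 4 than in bin 3 on both plates (21.4 against 14.1 CPM and 19.0 against 14.1 CPM).

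Itga11 counts were concentrated in few cells, as were those of Itgb7. The 10 cells with the highest level held 33.9% of the summed CPM in bin 1 of plate 1 and 58.4% in bin 4, and on plate 2 they held 47.4% and 67.1%. Only 33 and 29 cells had an Itga11 count in bin 4 of plates 1 and 2. For Itgb7 the same share was 59.6% and 50.0% on plate 1 and 68.6% and 48.4% on plate 2. In bin 3 of plate 2 a single cell reached 229 CPM, where the bin mean was 9.03 CPM and the median 0. For Itgb7 the share of cells with a count in bins 1 and 4 was 54.7% and 67.7% on plate 1 and 44.2% and 71.3% on plate 2. The mean level in those cells was 14.8 and 28.3 CPM on plate 1 but 28.8 and 26.6 CPM on plate 2. For Itgb3 the share in bins 1 and 4 was 84.2% and 67.7% on plate 1 but 78.9% and 85.1% on plate 2, while the mean in cells with a count was 22.6 and 14.1 CPM over both plates. Itgb1, Itgb5 and Itgav had a count in all 762 cells, Itga5 in 99.9%, Itga6 in 95.9%, Itga3 in 93.2% and Itga1 in 21.4%.

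**Figure D3:**
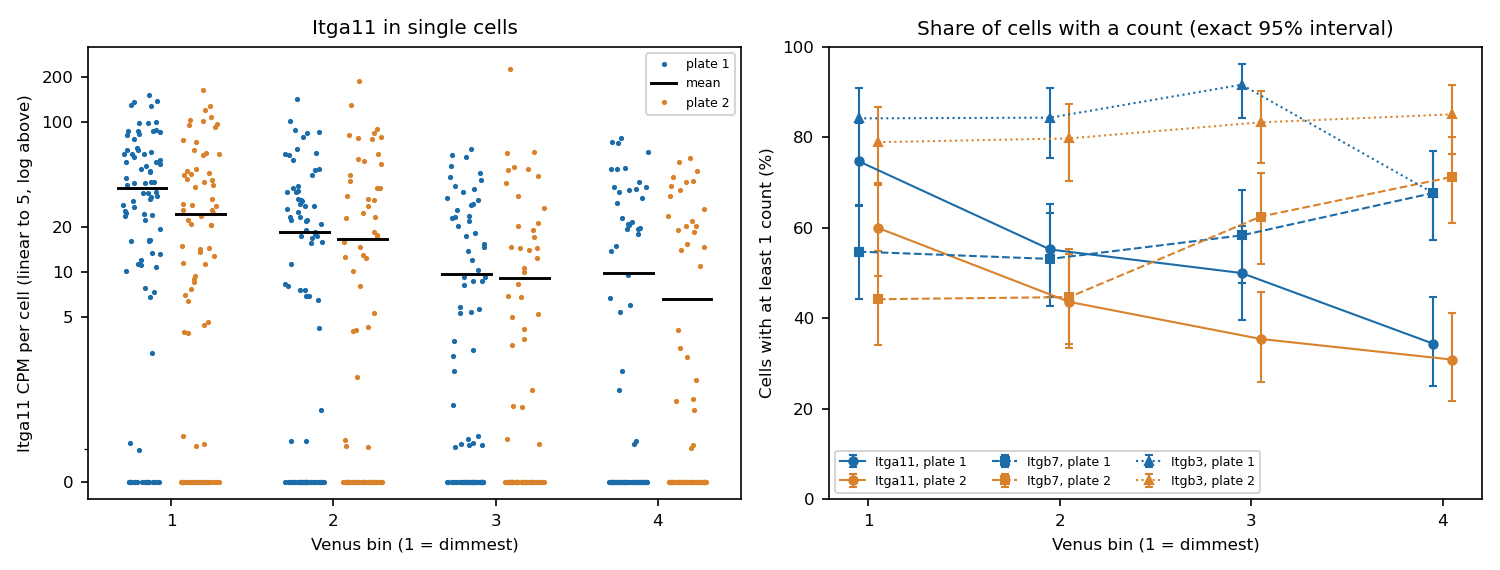
Left, Itga11 level in each cell (CPM, linear to 5 and logarithmic above) by Venus bin and plate, with the mean as a bar. Right, share of cells with at least 1 count of Itga11, Itgb7 and Itgb3 with exact 95% intervals for counting error; Itga11 goes from 74.7% to 34.4% on plate 1 and from 60.0% to 30.9% on plate 2 while Itgb7 is higher in bin 4 than in bin 1.

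Within a gate the recorded Venus intensity still varies from cell to cell, and each gate was split at its median. Nr1d1 itself was higher in the brighter cells in 8 of 8 blocks, where 0.282% of all genes were, with a median log2 ratio of 0.32. Itga11 was lower in the brighter cells in 6 of 8 blocks, where 16.2% of genes were lower in at least 6, with a median of -0.56 and values from -1.70 to 0.74. The exceptions were bin 4 of plate 1 and bin 1 of plate 2. With the outer tertiles of each gate the median was -0.32, and Itga11 was lower in 5 of 8 blocks, as were 40.7% of genes in at least 5. Itgb7 was higher in the brighter cells in 6 of 8 blocks, with a median of 0.68 (13.3% of genes were higher in at least 6). With tertiles it was higher in 7 of 8, where 2.91% of genes were higher in 7 or more. Itgb3 and Itgb5 had medians of 0.05 and 0.00 and were lower in 3 and 4 of 8 blocks. Itgb1 was lower in the brighter cells in 6 of 8 blocks, with a median of -0.08 and values from -0.18 to 0.05. With tertiles it was lower in 7 of 8 (median -0.12), a form whose share over all genes was not counted.

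Other splits of the same cells also moved Itga11. Cells above the gate median of forward scatter, a measure of size, had more Itga11 in 7 of 8 blocks (median log2 ratio 0.44, with 3.64% of genes higher in 7 or more). Cells in the later well columns of a gate, a split added after the data were seen, had less Itga11 in 6 of 8 blocks (median -0.27, with 13.9% of genes lower in 6 or more) and less Itgb5 in 7 of 8 (median -0.10, with 3.14% of genes lower in 7 or more). The part of well position in the differences between bins was not tested. Across the cells of a plate, the Spearman correlation of Itga11 with Venus intensity was -0.35 (383 cells) and -0.27 (379 cells). Within the 8 blocks its median was -0.13, and it was negative in 7 of 8. Among the other members this median ran from -0.12 for Itgb1 (negative in 6 of 8) to 0.12 for Itgb7 (negative in 2 of 8). The share of all genes negative in as many blocks was not counted. The cells of a block share plate, gate and sequencing pool, and the values are given as a description.

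**Figure D4:**
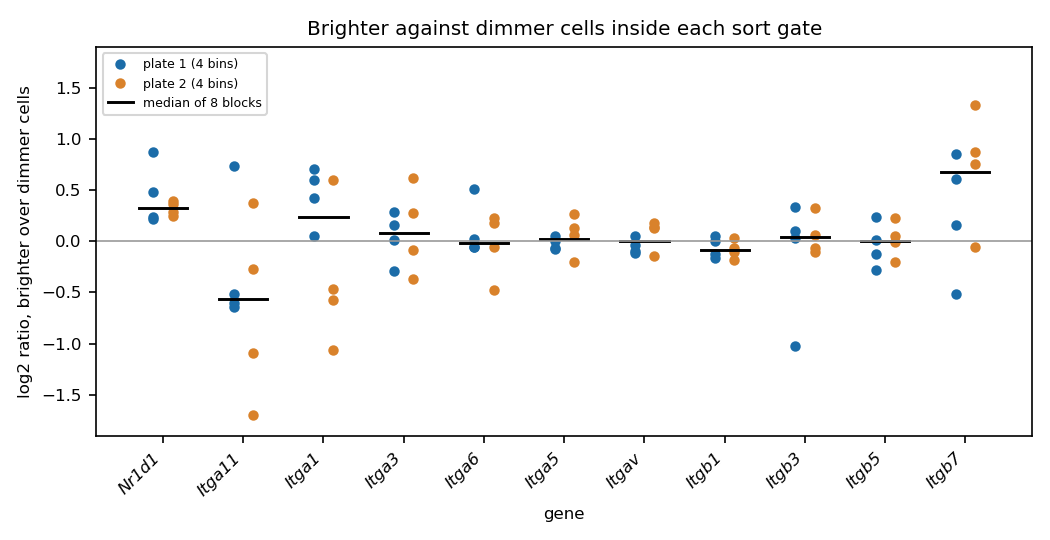
Log2 ratio of the summed level in the brighter over the dimmer cells of each sort gate, split at the gate median of Venus intensity, for Nr1d1 and the 10 integrin genes; each point is 1 bin of a plate and the bar is the median of 8. Nr1d1 lies above 0 in 8 of 8 blocks, Itga11 below 0 in 6 of 8 and Itgb7 above 0 in 6 of 8.

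Across cells of the same plate and bin, Itga11 went together with its partner Itgb1. The median Spearman correlation over the 8 blocks, each of 94 to 96 cells, was 0.36 (0.01 to 0.47) and it was positive in 8 of 8. Among 9012 genes above a mean log2 CPM of 3, this placed Itgb1 at rank 16, where the central 95% of genes ran from -0.19 to 0.23. Itga11 and Itgb5 correlated at 0.27 (8 of 8 positive) and Itga11 and Itgb7 at -0.25 (0 of 8 positive). With Itga1, the collagen-binding relative, the median was 0.11, and with the fibronectin receptor chains Itga5 and Itgav it was -0.06 and -0.11. Thinning to equal depth changed no pair of members by more than 0.05.

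Over the 45 pairs of members, 32 medians were positive. Next to the Itga11 pairs, Itgb1 with Itgb5 stood at 0.31, Itga6 with Itgb7 at 0.27, Itga3 with Itgb7 at 0.26 and the laminin-binding pair Itga3 and Itga6 at 0.20, each positive in 8 of 8 blocks. Pairs known as receptors ranged widely: Itga6 with Itgb1 was at 0.19, Itga3 with Itgb1 at 0.06 and Itgav with Itgb3 at 0.05. Itga5 with Itgb1 was at 0.02 and Itgav with Itgb5 at -0.004. The other collagen receptor pair, Itga1 with Itgb1, was at -0.04 and positive in 2 of 8 blocks. Points within a block share their library preparation and differ in depth.

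**Figure D5:**
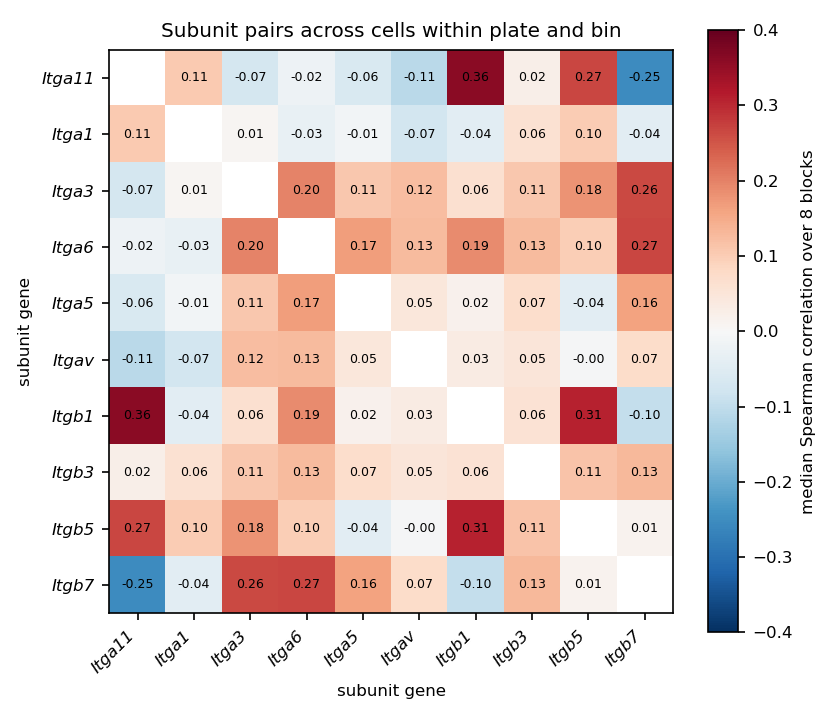
Median Spearman correlation of log2 CPM over 8 plate and bin blocks for each pair of the 10 integrin genes, on a color scale from -0.4 to 0.4. The highest value is Itga11 with Itgb1 at 0.36 and the lowest Itga11 with Itgb7 at -0.25.

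The genes most like Itga11 across cells within blocks were Bgn (the proteoglycan biglycan, 0.51), Col1a1 (a fibrillar collagen chain, 0.49), Fbln2 (the matrix protein fibulin 2, 0.43), Cyp2c55 (0.41) and Col5a2 (a fibrillar collagen chain, 0.39), each positive in 8 of 8. The medians of clock genes lay near 0 in the same cells: Arntl at 0.02, Dbp at 0.02, Tef at 0.08 and Nr1d1 at -0.07. Single blocks ran from -0.28 to 0.15 for Arntl and from -0.12 to 0.24 for Dbp. For Tef they ran from -0.25 to 0.26 and for Nr1d1 from -0.14 to 0.21. Each block holds 1 Venus gate, so differences between gates do not enter these values. By the course of the 8 sums with plate means removed, the most similar genes were Fam13b (Pearson 0.992), C430049B03Rik (0.990), Lmo4 (0.989), Ginm1 (0.988) and Shisa4 (0.988). Among the same 9012 genes Arntl ranked 110 (0.947) and Itgb5 186 (0.931). Similarity of course ignores its size: Fam13b had a trend of -0.18.

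Of 27 genes of matrix proteins and other ligands that integrins bind, 26 were tested, 14 fell and the other 12 did not pass, where 8.64% of all genes fell. The median trend of the list was -0.12 against 0.00 for all genes tested, and 21 of the 26 trends were below 0. The largest were Tnc (tenascin C, -0.38), Ccn2 (a matricellular protein, -0.36), Nid1 (nidogen, -0.27), Fn1 (fibronectin, -0.26) and Col5a2 (-0.24). Fn1 was at 5953 ± 549 CPM in bin 1 and 3513 ± 30.3 in bin 4 (SD, n = 2 plates). Across cells within blocks, 21 of 23 ligand genes above the level minimum had a positive median correlation with Itga11, and 9 lay above the upper bound of the central 95% of genes.

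Of the 30 genes of the adhesion complex inside the cell, 29 were tested, 2 rose, 6 fell and 21 did not pass, where 6.78% of all genes rose and 8.64% fell. The median trend was -0.03. The largest were Parvg (gamma parvin, 0.85), Nedd9 (a scaffold protein, -0.16), Fermt2 (kindlin 2, an integrin activator, -0.16), Tgfb1i1 (Hic-5, -0.15) and Bcar1 (p130Cas, a scaffold protein, 0.12). Parvg was at 2.42 ± 1.5 CPM in bin 1 and 14.0 ± 0.44 CPM in bin 4 (SD, n = 2). Of the 26 genes of this list above the level minimum, 10 had a positive median correlation with Itga11 across cells. None lay above the central 95% of genes, and 4 lay below it (Parva, Parvb, Rsu1 and Itgb1bp1). Of 8 myofibroblast genes 7 were tested and 1 rose, Actg2 (an actin gene, 1.10), which had a count in 8.14% of cells. Actg2 was at 0.39 ± 0.29 CPM in bin 1 and 4.73 ± 4.24 CPM in bin 4 (SD, n = 2), so the plates differed widely in bin 4.

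Of the 17 other integrin subunits on the list, 13 were in the table and 9 were tested. Of all genes tested 6.78% rose, and of these 9 subunits 1 rose. This was Itgb4, the laminin receptor chain of hemidesmosomes that pairs with α6, at 10.1 ± 2.72 CPM in bin 1 and 19.9 ± 2.7 in bin 4 (SD, n = 2), a trend of 0.30 (edgeR adjusted p = 0.00469). Of the epithelial markers Cdh1 was at 4.76 CPM, and its trend of -0.01 did not pass. Itga10, a further collagen-binding chain, was at 1.09 CPM with a trend of 0.12 (edgeR adjusted p = 0.449). Itga2, which also binds collagen, had 11 counts in 5 cells.

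Some cell cycle genes also passed the test. Of 43 S phase genes 13 rose and 30 did not pass (median trend 0.18), where 6.78% of all genes rose. Of 54 G2/M genes 7 rose, 2 fell and 45 did not pass (0.07), a share near the 15.4% of all genes called. The summed G2/M level was 1584, 1733, 1805 and 2463 CPM from bin 1 to bin 4 on plate 1. On plate 2 it was 2366, 2520, 1687 and 2590 CPM, with bin 3 below bin 1. In cells at or under their plate's median share of G2/M counts, the Itga11 trend was -0.58. Across cells within blocks, the median correlation of Itga11 with the 49 G2/M genes above the level minimum was -0.10. Of the fibroblast markers, Vim and S100a4 rose, Thy1, Col1a1 and Col1a2 fell, and Pdgfra and Pdgfrb did not pass. The endothelial markers Pecam1 and Cdh5 summed to 0.314 to 0.707 CPM, neither passed, and the 4 epithelial markers summed to 3.38 to 7.74 CPM.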

How the data were processed

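The authors' deposited table holds raw counts per gene and cell, and a second deposited table holds each cell's sort gate and flow cytometry intensity values. The submitters' processing notes name STAR 2.7.11a, SAMtools, bedtools and HTSeq with GRCm39 (mm39), without roles. The annotation, strand use and molecular identifiers are not given in the sources used here. Of 33757 features, 24902 matched a symbol.

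Cells needed 1000 genes, 0.1 of the plate's median total and at most 25% mitochondrial counts; no doublet caller was run, and 0 of 768 wells held counts identical to those of another. Counts were summed per plate and bin (8 sums) and fitted in R 4.3.3 with edgeR 4.0.16 (filterByExpr, TMM, quasi-likelihood test, terms for bin and plate, 3 residual degrees of freedom, Benjamini-Hochberg adjustment, threshold 0.05). The linear contrast over bins is the trend. The method was tested on simulated counts. DESeq2 1.42.0 and limma 3.58.1 (log2 of mean CPM + 0.5) served as alternatives, beside those in the closing section. The plate is a replicate block because all 4 bins of a plate share a plate and an iRFP sort. Lone-plate trends use log2 CPM with a prior count of 2. Per-length levels use GENCODE M21 exon lengths (GRCm38), so they are approximate for counts on another build. Correlations used log2 CPM of single cells.

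The members and gene lists were chosen with earlier results of these data known. Named are the members, up to 5 called genes per list with the largest trends, the 5 genes most like Itga11 by each measure, and 4 clock genes. Further genes were named after their values were seen: Rnase4, Ncam1, Itga10, Itga2, Cdh1 and genes of low or marker level.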

Additional observations from a re-analysis of the deposited data

Results flagged for a closer look

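For 4 values the plates lay on opposite sides of 0. The Venus trend of Itga5 was -0.07 on plate 1 and 0.03 on plate 2, a difference of -0.10 log2 per bin. For the curvature over bins, the difference of plate 1 minus plate 2 was 0.0582 for Itga3 (0.02 and -0.04) and -0.12 for Itga6 (-0.02 and 0.09). For Itga11 it was 0.27 (0.24 and -0.03). With 1 sum per plate and bin these differences between plates were not tested, and none of the 4 values passed the test in the fit of both plates with edgeR or DESeq2.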

How the results depend on the processing

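With 2 plates and 8 sums, counting depth limits low genes such as Itga1 and the share of cells with a count, and the number of plates limits every test. The Venus trend was called for 2843 genes, for 1683 with no replicate block (the plate term left out), 1858 in an additive linear model, 890 in cells low in G2/M counts, 1140 without bin 1 and 358 without bin 4. Without the replicate block 2 of the 9 tested members were called in place of 3. Without bin 4, 0 members were called by edgeR, with 3 at an unadjusted p under 0.05; DESeq2 and limma were not run without that bin. Of the called trend genes 44.0% were higher with TMM, 57.7% with library totals and 57.4% with limma on mean CPM. Curvature was called for 121 genes, for 530 with no filter on low counts (1 member), 295 with thinned cells (1 member), 1020 with DESeq2 (2 members) and 242 with limma (1 member). It was called for 0 genes by edgeR with no replicate block (2370 at an unadjusted p under 0.05) and in cells low in G2/M counts (1818). The sign of values that passed in no setting changed as follows. The trend of Itga5 was 4.48e-05 with library totals and 0.0762 without bin 1, and -0.0697 to 0.034 when either plate was left out. Without bin 1, that of Itgav was 0.00721 and that of Itgb1 -0.0368. The curvature of Itga3 was 0.0376 in cells low in G2/M counts and 0.0123 with limma, and that of Itga6 was -0.0308 in the former. With bin as 4 levels a lone plate leaves no residual degrees of freedom, and a linear fit of 1 plate was not run, so these are values with no test: leaving out either gave -0.69 to -0.68 for Itga11, -0.27 to -0.25 for Itgb3, -0.18 to -0.12 for Itgb5 and 0.23 to 0.35 for Itgb7. Over all settings run the Itga11 trend was -0.83 to -0.58. The causes of these shifts were not tested.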
